A study of Mus musculus with 8 samples.

Results

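The hypoxia-inducible factors, their regulator and genes they are known to switch on were examined in mouse kidney after loss of Sdhd, the gene of a membrane anchor subunit of succinate dehydrogenase (mitochondrial complex II). The genes were chosen by name, as 31 members: the factors Hif1a, Epas1, Hif3a and Arnt, the regulator Vhl, and target genes of glycolysis, acid handling, mitochondria, secretion and stress. Of the 22485 genes with a named feature on the arrays, 30 were members (Ero1l under its present name Ero1a), and Eno1 had no feature. A ratio could be tested for 25 of these, among 19958 genes tested. Two-colour arrays measured total RNA of kidneys from male 129/SvJ mice aged 10 weeks. SDHD-ESR mice carried 1 floxed and 1 null allele of SdhD and a tamoxifen-inducible Cre-ER recombinase. Their +/- littermates carried the same SdhD alleles without recombinase, and +/+ littermates carried 1 floxed and 1 wild-type allele, also without recombinase. All were injected with 100 µg/g tamoxifen on each of 4 days, starting at 9 weeks of age, and their kidneys were taken 1 week after treatment began. There were 4 arrays with SDHD-ESR RNA and 4 with +/- RNA, each from 2 mice (8 mice a group), all set against 1 pool of RNA from 8 +/+ mice. Loss of the second allele and presence of the recombinase came together and cannot be told apart. In whole kidney, fewer cells of a type and less RNA per cell cannot be told apart either.

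The factors work as pairs of an oxygen-regulated alpha subunit, encoded by Hif1a, Epas1 or Hif3a, and a constant partner, Arnt. In oxygen, prolyl hydroxylases mark the alpha subunits, the Vhl protein binds them as part of a ubiquitin ligase, and they are degraded, so that much of the control acts on the protein and not on its messenger RNA. The hydroxylases use 2-oxoglutarate and release succinate, the substrate of succinate dehydrogenase, and succinate in excess inhibits them. Stabilised factors bind short motifs near genes of glucose uptake, glycolysis, lactate export, pH control, mitophagy, vessel tone and, in the kidney, erythropoietin. The paper uses pseudo-hypoxia for a state in which Hif1α escapes degradation at normal oxygen. The comparison of SDHD-ESR with +/- kidneys bears only on whether the RNA of these genes was higher when Sdhd was lost.

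Values below are log2 ratios of kidney RNA over the +/+ pool, with the median of each array set to 0. In the deposited table Sdhd stood above the pool on all 8 arrays, so the sign of every ratio was turned. The genes that changed most have the same sign in the study's own table after this turn. Its hypoxia gene table, however, shows Vegf and, in SDHD-ESR, Pdk1, Ldha and Hk2 with the reverse sign. Ldha also has a size there that neither sign gives here. The Glut1 line of that table bears the accession of Poglut1, another gene, and so does not bear on Slc2a1. Every higher and lower given here rests on the turned sign. Centred Sdhd was then -4.26, -3.65, -5.04 and -3.25 on the SDHD-ESR arrays, against -0.79, -0.40, -0.92 and -0.93 on the +/- arrays. Which probe each value belongs to was also inferred, from the likeness of repeated spots. Slide 1 held arrays 1 and 2 of both groups and slide 2 held arrays 3 and 4, and position on the slide followed the genotype, so the 2 cannot be told apart. Before centring, array medians were between -0.06 and 0.94 in SDHD-ESR and between -0.19 and 0.41 in +/-, and the median difference between the groups over all genes was 0.28, against 0.02 after centring. Differences below are relative to that shift. Of 12 kidney tubule and glomerulus markers, 8 could be tested, 4 higher and 4 lower in SDHD-ESR than in +/-, with a median difference of 0.01. Among them 1, Slc12a3 (0.38 ± 0.11), had an unadjusted limma p of 0.05 or less, or 12.5%, against 8.18% of all genes. Umod, Lrp2 and Kap could not be tested, since their features were within 0.01 of 0 on most arrays before centring. No absolute level can be read from these ratios.

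The motif of the factors has the core ACGTG or GCGTG. Over both strands, 24 of 27 members with a promoter in RefSeq (build GRCm38.p6, 250 bases before to 50 after a start) held 1 of these cores, 88.9%, against 46.7% of 27025 genes. ACGTG was found in 17 members, 63%, against 21.8% of all genes, and GCGTG in 17 members as well, 63%, against 35.2%. Since members were picked as known targets, these shares describe the choice. The promoters of Hif3a, Bnip3, Ldha and Ak4 are printed because the smallest p-values between SDHD-ESR and +/- fell on these members. They run 5′ to 3′ on the gene's strand, with ACGTG or GCGTG, or their complements CACGT and CACGC, in capitals.
Hif3a, chr7:17062378-17062677, minus strand: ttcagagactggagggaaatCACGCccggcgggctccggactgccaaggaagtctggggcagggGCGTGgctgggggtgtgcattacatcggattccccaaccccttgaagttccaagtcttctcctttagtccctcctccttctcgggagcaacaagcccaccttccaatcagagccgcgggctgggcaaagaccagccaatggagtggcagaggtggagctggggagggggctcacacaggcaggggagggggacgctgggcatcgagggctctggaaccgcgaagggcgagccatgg
Bnip3, chr7:138909457-138909756, minus strand: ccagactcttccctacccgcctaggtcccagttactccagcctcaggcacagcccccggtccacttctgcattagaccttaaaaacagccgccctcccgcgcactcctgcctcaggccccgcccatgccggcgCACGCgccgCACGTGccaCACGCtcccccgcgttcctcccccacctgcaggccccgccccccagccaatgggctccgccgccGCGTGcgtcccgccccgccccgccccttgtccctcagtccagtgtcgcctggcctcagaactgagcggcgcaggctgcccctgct
Ldha, chr7:46845554-46845853, plus strand, first of 2 starts: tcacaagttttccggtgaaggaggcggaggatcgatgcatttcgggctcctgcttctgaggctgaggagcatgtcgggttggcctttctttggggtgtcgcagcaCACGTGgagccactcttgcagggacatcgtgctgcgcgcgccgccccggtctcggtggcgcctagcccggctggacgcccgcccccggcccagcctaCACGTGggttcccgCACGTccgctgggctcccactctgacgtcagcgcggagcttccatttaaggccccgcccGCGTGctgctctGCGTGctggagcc
Ak4, chr4:101419039-101419338, plus strand, first of 4 starts: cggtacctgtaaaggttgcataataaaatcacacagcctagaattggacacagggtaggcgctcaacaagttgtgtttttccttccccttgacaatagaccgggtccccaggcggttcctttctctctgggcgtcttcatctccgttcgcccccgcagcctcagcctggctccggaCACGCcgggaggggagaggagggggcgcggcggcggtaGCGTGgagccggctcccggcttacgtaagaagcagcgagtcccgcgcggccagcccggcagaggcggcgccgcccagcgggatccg
In the Ldha promoter ACGTG was found 5 times, counting both strands of a palindrome, and GCGTG 2 times. The Bnip3 promoter held ACGTG 2 times and GCGTG 3 times, while that of Hif3a and the printed one of Ak4 held GCGTG 2 times each and no ACGTG. The promoter of the last of the 4 Ak4 starts did hold ACGTG, once on each strand of a palindrome. A match is a run of letters and does not show binding.

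Between SDHD-ESR and +/- kidneys, the targets did not move together. Of the 25 members tested, 11 had a higher and 14 a lower mean in SDHD-ESR, with a median difference of -0.04, against 0.02 over all genes. None of them had a limma adjusted p of 0.05 or less, a threshold passed by 3 of all genes tested (0.015%). Sdhd itself, at 10.2% of its +/- ratio, had an adjusted p of 0.105 and did not pass either, so a member that misses this threshold is not shown to be alike in the groups. At an unadjusted p of 0.05 or less there were 4 members, Hif3a and Bnip3 higher and Ldha and Ak4 lower, or 16%, against a background of 8.18% (4.2% higher and 3.98% lower). The SDHD-ESR and +/- arrays did not overlap for 4 members, Hif3a and Adm higher and Ldha and Ak4 lower, against 5.83% of all genes (2.95% higher and 2.88% lower). Without centring, 22 members were higher and 3 lower, with a median difference of 0.22 beside 0.28 for all genes. Hif3a was then the 1 member at an unadjusted p of 0.05 or less, where 4.09% of all genes were.

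**Figure D1:**
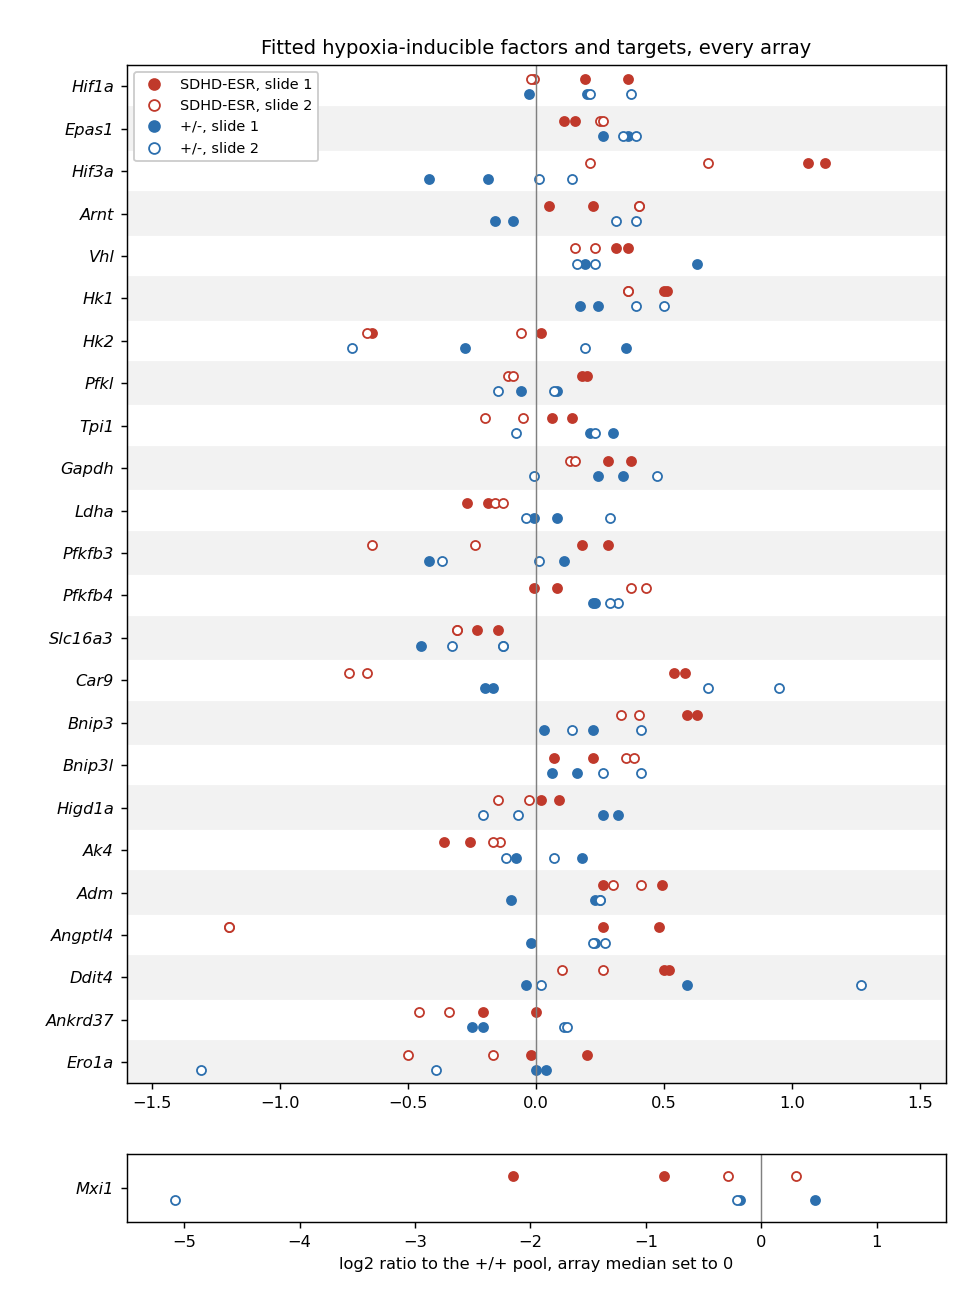
Centred log2 ratio to the +/+ pool (x axis) of each of the 25 members tested, with 1 point per array, SDHD-ESR in red above +/- in blue, slide 1 filled and slide 2 open; Mxi1 has its own axis. Hif3a stands apart with 0.21 to 1.13 in SDHD-ESR and -0.42 to 0.14 in +/-, while in most other rows the colours mix.

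Hif3a, the third alpha subunit, some forms of which inhibit the other factors and which is itself a target in other settings, had the largest value among the factors. It measured 1.06, 1.13, 0.67 and 0.21 in SDHD-ESR, against -0.42, -0.19, 0.01 and 0.14 in +/-. All SDHD-ESR arrays were above all +/- arrays, with the nearest pair, both on slide 2, close together. The difference was 0.88 ± 0.23 (SE, n = 4 arrays each), or 1.84-fold, over the 2 features with a value on every array, with an unadjusted limma p of 0.00533 and an adjusted p of 0.46. The exact two-sided permutation p was 0.0286, the smallest that 4 against 4 arrays allow. On slide 1 it was 1.40 and on slide 2 0.37. In each of the 8 fits without 1 array the unadjusted p stayed at 0.05 or less.

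The 3 features of Hif3a, all of 1 transcript, did not give the same picture. Before centring, feature 26102 read 1.87, 1.87, 0.29 and 1.01 in SDHD-ESR, against -0.52, -0.36, 0.15 and 0.70 in +/-. Feature 5919 read 0.25, 0.27, 1.82 and 1.27 in SDHD-ESR, against -0.70, -0.40, 0.26 and 0.39 in +/-. After centring, feature 26102 was 1.87, 1.93, -0.09 and 0.08 in SDHD-ESR, against -0.33, -0.17, -0.04 and 0.30 in +/-. Feature 5919 was 0.25, 0.33, 1.44 and 0.33 in SDHD-ESR, against -0.51, -0.21, 0.06 and -0.02 in +/-. The first was thus higher in SDHD-ESR on slide 1 only, and the second on both slides, most on array 3. Their differences after centring were 1.01 ± 0.51 and 0.76 ± 0.29, with unadjusted limma p of 0.0886 and 0.0319. Feature 4133, which lacked a value on 1 array and was left out of the gene's mean, had the opposite direction, a difference of -0.27 ± 0.11 with an unadjusted limma p of 0.0484. With it averaged in, the difference of Hif3a was 0.61 (unadjusted limma p of 0.0236, adjusted 0.568), and with small whole numbers kept as values it was 0.52 (0.0153, adjusted 0.527). It was left out after values were seen. Over all genes, 7.49% of single features reached such a p, and 4 of the 38 member features tested did.

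**Figure D2:**
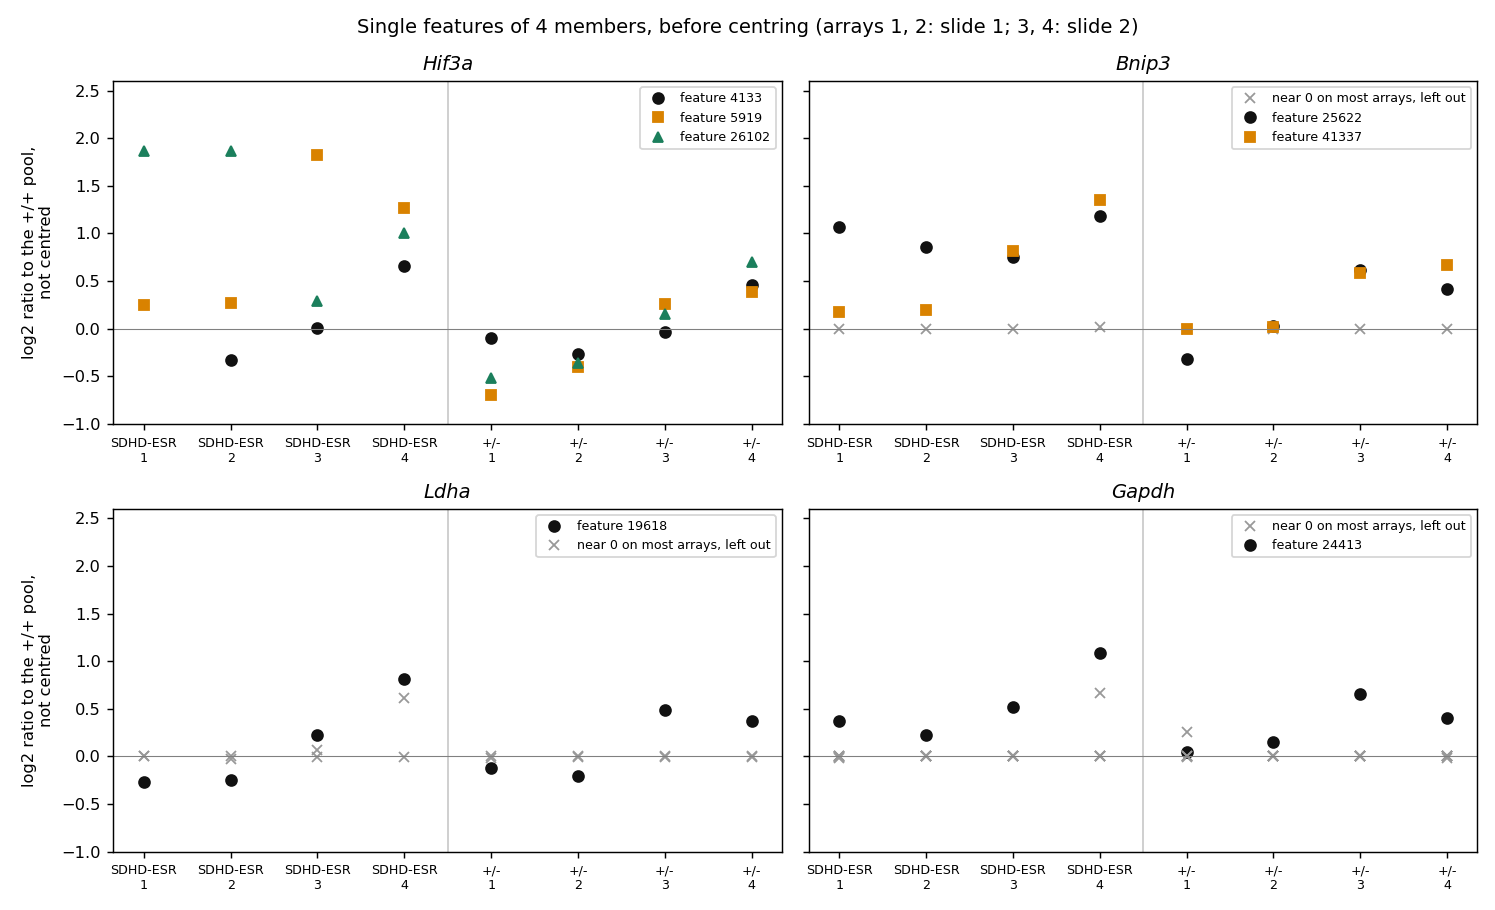
Log2 ratio to the +/+ pool before centring (y axis) on the 8 arrays (x axis, SDHD-ESR left of +/-), with 1 symbol per feature of Hif3a, Bnip3, Ldha and Gapdh; grey crosses are features near 0 on most arrays, which were left out. In SDHD-ESR, Hif3a feature 26102 is highest on slide 1 and feature 5919 on slide 2, where the SDHD-ESR array medians were also higher. For Gapdh, 6 of 7 features lie at 0 on most arrays.

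The other factors differed by less than Hif3a. Epas1, the alpha subunit that in kidney is found mainly in endothelial and interstitial cells, measured 0.15, 0.11, 0.25 and 0.26 in SDHD-ESR, against 0.26, 0.36, 0.34 and 0.39 in +/-. The groups met at 0.26, and the difference of -0.15 ± 0.07 had an unadjusted limma p of 0.0826 and an adjusted p of 0.663. Its 3 features differed by -0.34 ± 0.08, -0.10 ± 0.08 and 0.01 ± 0.16, with an unadjusted p of 0.00349 for the first. Of 10 endothelial markers 8 were lower in SDHD-ESR, with a median of -0.13 and mean levels between -0.30 and 0.26 in SDHD-ESR and between -0.08 and 0.15 in +/-. The upper end in SDHD-ESR came from Erg, at 2.71 on SDHD-ESR array 1, and the other 9 markers had mean levels between -0.22 and -0.02 in SDHD-ESR and between -0.04 and 0.24 in +/-. The part of these cells in the Epas1 value was not tested.

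Hif1a, the most widely expressed alpha subunit, measured 0.36, 0.19, -0.01 and -0.02 in SDHD-ESR, against 0.20, -0.03, 0.21 and 0.37 in +/-. The groups overlapped, the difference was -0.06 with a 95% interval of -0.35 to 0.23, and its sign differed between slide 1 (0.19) and slide 2 (-0.31). Arnt measured 0.05, 0.22, 0.40 and 0.40 in SDHD-ESR, against -0.09, -0.16, 0.39 and 0.31 in +/-. Both groups were higher on slide 2 than on slide 1, and the difference of 0.16 had an interval of -0.21 to 0.53. Vhl measured 0.31, 0.36, 0.15 and 0.23 in SDHD-ESR, against 0.63, 0.19, 0.16 and 0.23 in +/-. Apart from +/- array 1 the groups lay in the same range, and the difference was -0.04, with an interval of -0.33 to 0.24.

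In glycolysis, Ldha, which turns pyruvate into lactate, was the member that stood apart, and it was lower in SDHD-ESR. It measured -0.27, -0.19, -0.16 and -0.13 in SDHD-ESR, against 0.08, -0.01, 0.29 and -0.04 in +/-. The groups did not overlap, and the difference was -0.26 ± 0.09, or 0.833-fold, with an unadjusted limma p of 0.0244 and an adjusted p of 0.561. It was -0.26 on slide 1 and -0.27 on slide 2, the most even pair among the 4 members named above. Without centring the difference was 0.00 in size, so the lower value holds relative to the other genes of these arrays. Its level against the pool carries the doubt about sign and size given above. The difference rested on 1 of 3 features, the other 2 being near 0 on most arrays. Without SDHD-ESR array 1 the unadjusted p was above 0.05.

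The other glycolytic members differed little between SDHD-ESR and +/-. Over the 9 tested of 12 in this group, 4 were higher and 5 lower, with a median of -0.02 and values from -0.26 to 0.11. Hk1, the hexokinase of most tissues, measured 0.50, 0.51, 0.36 and 0.36 in SDHD-ESR, against 0.24, 0.17, 0.50 and 0.39 in +/-. After centring it was above the pool on every array, while before centring its 2 features read -0.04 and -0.00 on +/- array 2. The difference after centring was 0.11 with an interval of -0.12 to 0.33. Hk2, a hexokinase that the factors induce, measured -0.64, 0.02, -0.66 and -0.06 in SDHD-ESR, against 0.35, -0.28, 0.19 and -0.72 in +/-. The scatter within each group was wider than the difference of -0.22, whose interval ran from -0.87 to 0.43.

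Slc16a3, a lactate exporter, measured -0.15, -0.23, -0.31 and -0.31 in SDHD-ESR, against -0.13, -0.45, -0.33 and -0.13 in +/-. After centring it lay below the pool on every array of both groups, and the difference of 0.01 had an interval of -0.22 to 0.24. Before centring both of its features read above the pool on SDHD-ESR arrays 3 and 4 and on +/- array 4. Pfkfb4, one of the enzymes that set the level of an activator of phosphofructokinase, measured 0.08, -0.01, 0.43 and 0.37 in SDHD-ESR, against 0.22, 0.23, 0.32 and 0.29 in +/-. The groups overlapped with a difference of -0.05. A second Pfkfb4 feature had no value on 2 of the +/- arrays and was left out. It read -1.18, -0.93, -2.51 and -2.67 in SDHD-ESR, against 0.13 and -1.47 on the 2 +/- arrays with a value. Gapdh, tested on 1 of its 7 features, measured 0.37, 0.28, 0.13 and 0.15 in SDHD-ESR, against 0.24, 0.34, 0.47 and -0.01 in +/-. Its difference of -0.02 had an interval of -0.30 to 0.26. Pfkl, Tpi1 and Pfkfb3 had differences of 0.06, -0.18 and 0.06.

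Some members, among them enzymes of glycolysis, gave no usable ratio. Aldoa, Pgk1, Ndrg1 (a stress-induced growth regulator) and Car12 (a cell-surface carbonic anhydrase) were covered by 1 feature each, and each of these was within 0.01 of 0 on at least 5 of the 8 arrays before centring. A ratio of 0 is what a spot saturated in both colours would give, but intensities were not used here and this was not tested. Pgk1 lay within 0.02 of 0 on all 8 arrays. In all, 14 of 54 member features were of this kind, beside 1210 of all 45220 features. The 14 included 1 of 3 for Bnip3, 1 of 2 for Tpi1, 2 of 3 for Ldha and 6 of 7 for Gapdh. They were left out, because centring would turn a fixed 0 into the reverse of the array's median. With them kept, 2 members in place of 4 had an unadjusted p of 0.05 or less, Hif3a and Ak4.

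Of the members that act in mitochondria, Bnip3 was higher and Ak4 lower in SDHD-ESR, while Bnip3l and Higd1a differed by 0.03 and -0.09. Bnip3, a receptor that marks mitochondria for removal, measured 0.63, 0.59, 0.40 and 0.33 in SDHD-ESR, against 0.03, 0.22, 0.41 and 0.14 in +/-. Of the +/- arrays, 1 reached into the SDHD-ESR range. The difference was 0.29 ± 0.11, or 1.22-fold, with an unadjusted limma p of 0.0371, an adjusted p of 0.585 and an exact permutation p of 0.0857. On slide 1 it was 0.48 and on slide 2 0.09. It came mostly from feature 25622, with a difference of 0.52 ± 0.22, while feature 41337 differed by 0.06 ± 0.09. With the third feature, near 0 on most arrays, kept, the difference was 0.11 with an unadjusted p of 0.459. The unadjusted p stayed at 0.05 or less in 3 of the 8 fits without 1 array, being lost without array 1 or 2 of either group or without +/- array 4.

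Ak4, an adenylate kinase of the mitochondrial matrix, measured -0.26, -0.36, -0.14 and -0.17 in SDHD-ESR, against -0.08, 0.18, 0.07 and -0.12 in +/-. The groups did not overlap, though -0.14 in SDHD-ESR and -0.12 in +/- were close. The difference was -0.24 ± 0.10, or 0.844-fold, with an unadjusted limma p of 0.0364 and an adjusted p of 0.582, and it was -0.36 on slide 1 and -0.13 on slide 2. Without centring it was 0.02. The unadjusted p stayed at 0.05 or less in 4 of the 8 fits without 1 array, being lost without SDHD-ESR array 1 or 2 or +/- array 2 or 3. Its 2 features, 18813 and 23565, differed by -0.34 ± 0.17 and -0.15 ± 0.12, with unadjusted limma p of 0.0846 and 0.24. Feature 23565 was within 0.01 of 0 on 3 arrays before centring. With features near 0 on 2 or more arrays left out, Ak4 differed by -0.34 and its unadjusted p was above 0.05. Bnip3l, a relative of Bnip3, measured 0.07, 0.22, 0.35 and 0.38 in SDHD-ESR, against 0.06, 0.16, 0.26 and 0.41 in +/-, and the groups covered the same range.

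Among secreted members, Adm, a vasodilator peptide, measured 0.49, 0.26, 0.30 and 0.41 in SDHD-ESR, against 0.23, -0.10, 0.25 and 0.25 in +/-. The groups did not overlap, by a margin of 0.01, and the difference of 0.21 ± 0.11 had an unadjusted limma p of 0.0977 and an exact permutation p of 0.0286. Epo, the hormone of red cell production, which interstitial fibroblasts of the kidney make, had too few values for a test. It read -2.26, -0.91 and -0.12 on 3 SDHD-ESR arrays, against -2.10 and -1.67 on 2 +/- arrays. Of 10 fibroblast and interstitial markers 9 were lower in SDHD-ESR than in +/-, with a median of -0.50 and mean levels between -1.04 and -0.50 in SDHD-ESR and between -0.29 and -0.12 in +/-. Their part in the Epo values was not tested.

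Some members split by slide within a group. They were singled out after their values were seen. Car9, a carbonic anhydrase of the cell surface, read 0.58, 0.54, -0.73 and -0.66 in SDHD-ESR, against -0.20, -0.17, 0.67 and 0.95 in +/-. SDHD-ESR was higher on slide 1, by 0.74, and lower on slide 2, by a difference of -1.51, so that the value over all arrays, -0.38 ± 0.42, describes neither slide. Angptl4, an inhibitor of lipoprotein lipase, read 0.26, 0.48, -1.20 and -1.20 in SDHD-ESR, against -0.02, 0.23, 0.27 and 0.22 in +/-. The low values in SDHD-ESR were both on slide 2. Mxi1, an antagonist of Myc, read -2.15, -0.84, -0.29 and 0.30 in SDHD-ESR, against -0.18, 0.47, -0.21 and -5.08 in +/-. A single +/- array lay far below the rest, and the difference of 0.51 had an interval of -2.40 to 3.42.

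Each of these 3 members had 1 feature, so no second probe bears on their values. The sign of the difference was opposite on the 2 slides for 13 of the 25 members, beside 47.5% of all genes. Opposite differences of at least 0.5 on both slides were seen for 2 members, Car9 and Mxi1, beside 4.42% of all genes. The slide 2 difference of Mxi1, 2.65, rested on +/- array 4. Ddit4, an inhibitor of the mTOR pathway, Ankrd37, a small ankyrin protein, and Ero1a, an oxidase of the endoplasmic reticulum, differed by -0.11 ± 0.29, -0.20 ± 0.14 and 0.29 ± 0.32.

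**Figure D3:**
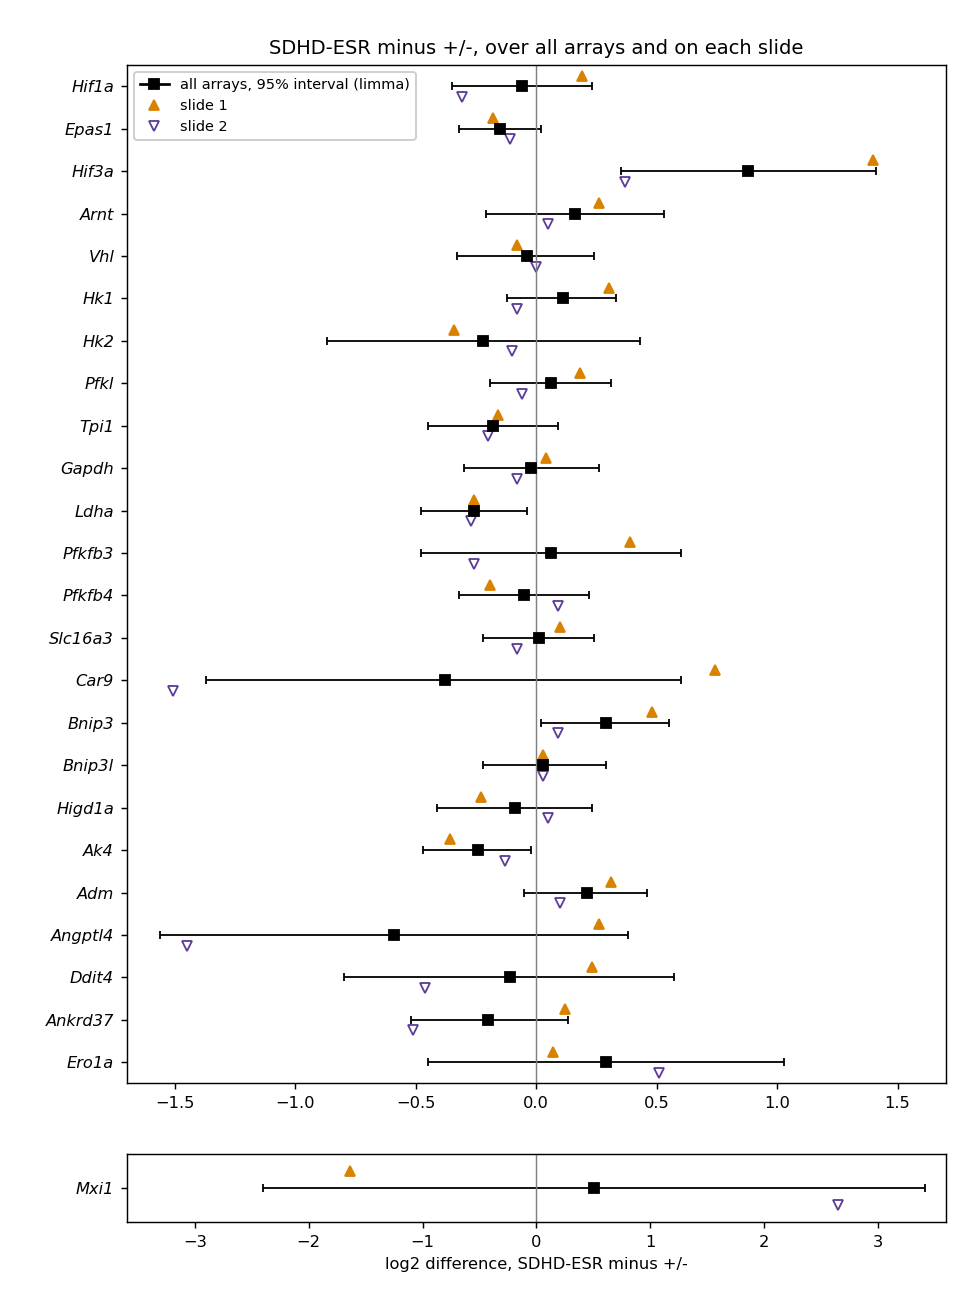
Difference in log2 ratio, SDHD-ESR minus +/- (x axis), for the 25 members tested; squares are the means over all arrays with the 95% interval from limma, and triangles the difference on slide 1 (filled) and slide 2 (open). The interval of Hif3a runs from 0.35 to 1.41, Ldha has both slides near -0.26, and Car9 has its slides at 0.74 and -1.51.

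Against the +/+ pool, 8 of 25 members in SDHD-ESR had a limma adjusted p of 0.05 or less, or 32%, against 25.8% of all genes (17.5% higher and 8.27% lower). In +/- there were 4 of 25, or 16%, against 19% of all genes (12.7% higher and 6.35% lower). Both shares lie near the background. The 2 comparisons share the pool, and a dye effect and the spread of the +/+ mice, of which 1 pool was used on all arrays, are not covered by these tests. The median over members was 0.04 in SDHD-ESR and 0.16 in +/-, against 0.03 over all genes in each. Without centring, 0 members passed in either group, with 8 members in SDHD-ESR and 0 in +/- at an unadjusted p of 0.05 or less, against 29.6% and 11.4% of all genes.

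In SDHD-ESR the members that rose were Hif3a (0.77 ± 0.16), Bnip3 (0.49 ± 0.08), Hk1 (0.43 ± 0.07), Adm (0.36 ± 0.08), Bnip3l (0.25 ± 0.08) and Epas1 (0.19 ± 0.05), with SE in brackets. Those that fell were Slc16a3 (-0.25 ± 0.07) and Ak4 (-0.23 ± 0.07). The same members in +/- stood at -0.12 ± 0.16 for Hif3a, 0.20 ± 0.08 for Bnip3, 0.32 ± 0.07 for Hk1, 0.16 ± 0.08 for Adm, 0.22 ± 0.08 for Bnip3l, 0.34 ± 0.05 for Epas1, -0.26 ± 0.07 for Slc16a3 and 0.01 ± 0.07 for Ak4. In +/- those that passed were Epas1, Hk1 and Vhl (0.30 ± 0.09), which rose, and Slc16a3, which fell. The limma adjusted p in SDHD-ESR was 0.00673 for Hk1, 0.00762 for Bnip3, 0.0153 for Hif3a, 0.0158 for Adm, 0.0323 for Epas1, 0.0368 for Slc16a3, 0.0431 for Ak4 and 0.0482 for Bnip3l.

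The rises of Hk1 and Bnip3 in SDHD-ESR passed in all 8 fits without 1 array, and so did that of Epas1 in +/-. With features near 0 kept, however, Bnip3 was at 0.22 with an adjusted limma p of 0.131 and did not pass. Hif3a was at 0.52 with incomplete features averaged and at 0.43 with small whole numbers kept, and passed in both (adjusted limma p of 0.0428 and 0.0347). Hif3a and Adm passed in 6 of the 8 in SDHD-ESR, Hif3a being lost without SDHD-ESR array 1 or 2 and Adm without SDHD-ESR array 1 or 4. Epas1 and Slc16a3 passed in 4, being lost without any 1 of the SDHD-ESR arrays. Bnip3l passed in 3 of the 8, lost without SDHD-ESR array 2, 3 or 4 or +/- array 2 or 3. Ak4 passed in 2, those without +/- array 2 or 4, and did not pass with features near 0 on 2 or more arrays left out. In +/-, Hk1 passed in 6, lost without +/- array 3 or 4, and Vhl and Slc16a3 in 0 of the 8. Without centring, the means of Slc16a3 and Ak4 in SDHD-ESR were 0.06 and 0.08, so their fall against the pool turned in sign.

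The study's joint rule was an adjusted p of 0.05 or less in SDHD-ESR against the pool with an unadjusted p of 0.05 or less against +/-. Applied with limma to centred arrays, it was met by 3 of 25 members: Hif3a and Bnip3, which were higher, and Ak4, which was lower. Over all genes 4.4% met it. With the methods' t-test only Hk1 passed against the pool, and its p against +/- was above 0.05, so no member met the rule. Without centring no member met it either. Bnip3 did not meet it with features near 0 on most arrays kept, nor Ak4 with those near 0 on 2 or more arrays left out or with slide as a block. With the replicate number as a block no member met it. With arrays scaled, Hif3a met it, Bnip3 and Ak4 did not, and Epas1, which was lower than in +/-, did.

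**Figure D4:**
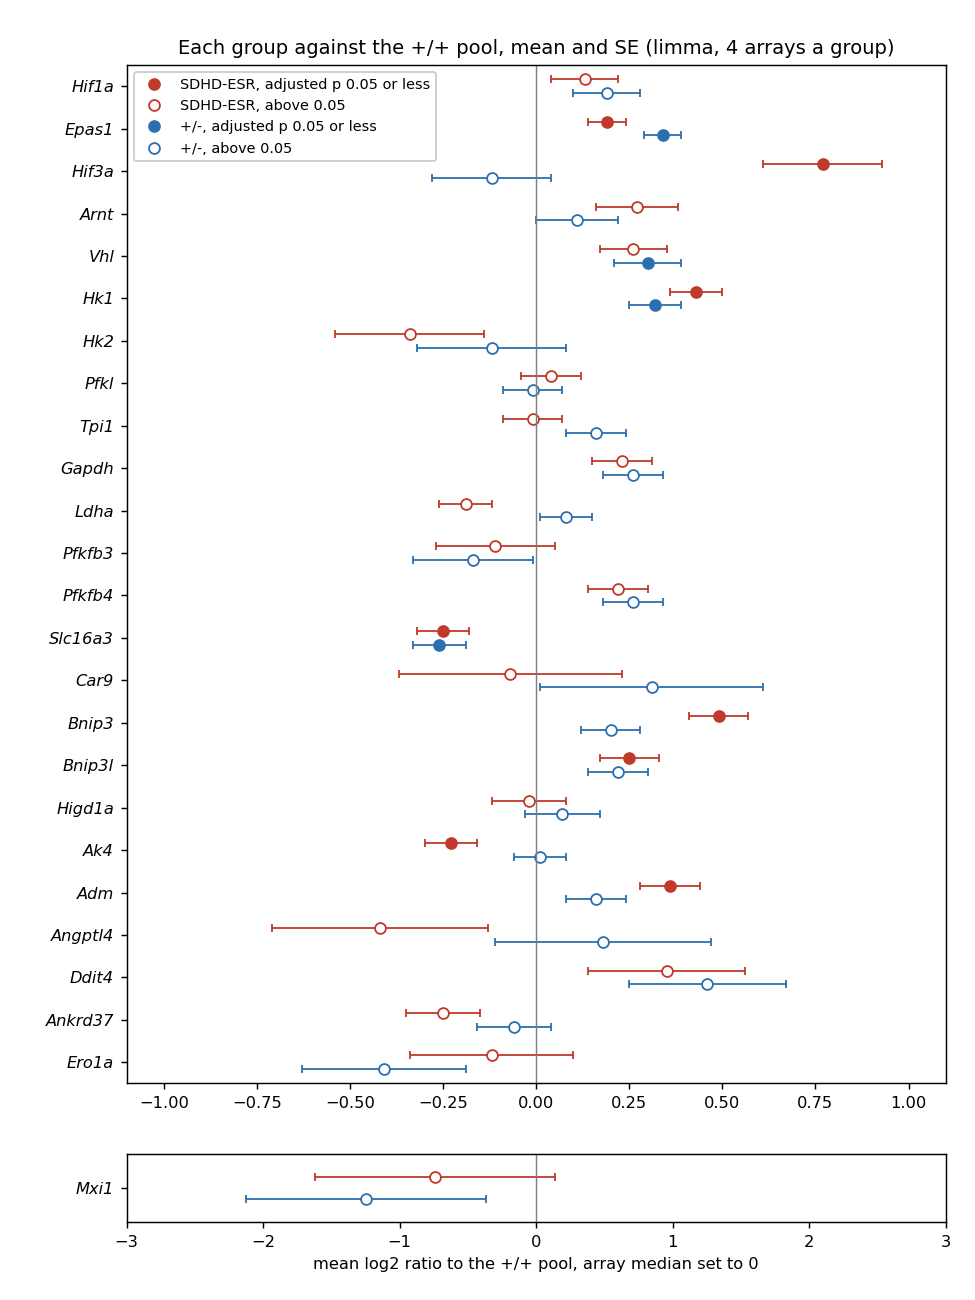
Mean log2 ratio to the +/+ pool (x axis) with its SE from limma over 4 arrays a group, SDHD-ESR in red above +/- in blue; filled points have an adjusted p of 0.05 or less over all genes. Filled red points number 8 and filled blue points 4, and Hk1, Epas1 and Slc16a3 are filled in both groups.

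The rest of the pathway was described with 44 other genes of oxygen sensing and known targets, of which 41 were tested. Between SDHD-ESR and +/-, 22 were higher and 19 lower, with a median of 0.02, the same as over all genes. Of these, 0 passed at an adjusted p of 0.05 by limma, and 6, or 14.6%, had an unadjusted p of 0.05 or less, 4 higher and 2 lower, against 8.18% of all genes (4.2% higher and 3.98% lower). Edn1, a vasoconstrictor peptide, differed by 0.52 ± 0.17, Wsb1, a ubiquitin ligase subunit, by 0.60 ± 0.22, Pdk1, the kinase that shuts off pyruvate dehydrogenase, by 0.48 ± 0.16, and Eno2, an enolase, by 0.26 ± 0.10. Lower means were those of Kdr, the main receptor of vascular endothelial growth factor, with -0.38 ± 0.09, and the coactivator Crebbp, with -0.23 ± 0.08, which without centring was 0.03.

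Pdk1 measured 0.47, 0.77, 0.37 and 0.26 in SDHD-ESR, against -0.18, 0.34, -0.16 and -0.05 in +/-. The highest +/- array reached into the SDHD-ESR range. Kdr, averaged over 11 features, measured -0.12, -0.35, -0.30 and -0.04 in SDHD-ESR, against 0.19, 0.25, 0.10 and 0.18 in +/-. The groups did not overlap. The endothelial markers Cdh5, Tek, Emcn and Robo4 were lower with it, with differences of -0.36 ± 0.11, -0.43 ± 0.11, -0.39 ± 0.15 and -0.34 ± 0.08. These were the 4 of 10 markers at an unadjusted limma p of 0.05 or less, or 40%, against 8.18% of all genes (3.98% lower). Without centring, Kdr differed by -0.12 and these 4 markers by -0.10, -0.17, -0.13 and -0.08. Pecam1, another defining endothelial marker, differed by 0.02 ± 0.11. Whether the Kdr value has a part in common with endothelial RNA was not tested. Vegfa and Slc2a1, targets often read in such studies, differed by -0.01 ± 0.09 and 0.31 ± 0.14, with unadjusted limma p of 0.927 and 0.0596. The oxygen sensors Egln1, Egln2 and Egln3 differed by 0.01 ± 0.24, 0.00 ± 0.09 in size and 0.04 ± 0.18. Vegfa, Slc2a1, Pecam1 and the Egln genes were picked out after their values were seen.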

How the data were processed

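Kidney RNA was read on Agilent 4 x 44k V2 two-colour arrays, with 200 ng of RNA labelled per sample. Test samples carried Cy5 and the +/+ pool Cy3 throughout, so dyes were never swapped. The authors scanned the arrays with GenePix, analysed them in Multi-Experiment Viewer and deposited values described as log ratios of the channels, which were read as log2 ratios. How background and array differences were corrected upstream is not given in the sources used here. Whole numbers, 9.03% of the values, cannot all be ratios and were set to missing. Feature numbers were matched to the platform through a scanner grid of 532 by 85, which made spots of the same accession alike (intraclass correlation 0.741 over 376 accessions, against -0.006 for plain numbers). A platform table named 33026 features with 1 gene each, and 0 symbols needed updating.

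The sign was turned, arrays were centred on their medians, features of an accession and then accessions of a gene were averaged, and genes with at least 3 values per group were tested by limma 3.58.1 (R 4.3.3), in which each group had its mean and variances were moderated (prior degrees of freedom 1.47). Tests were two-sided, and p-values were adjusted by Benjamini and Hochberg over all genes, with a threshold of 0.05. For single members an exact permutation test of the 8 arrays was added. The 1210 features within 0.01 of 0 on at least 5 arrays were left out, and features lacking an array were not averaged where a gene had a complete one. Both choices were made after values were seen, and the opposite settings were tried. Members, gene lists, the settings tried and the rule for named genes were chosen with earlier results of these data known. Values on every array are given for the factors and Vhl, members with an unadjusted p of 0.05 or less against +/-, Hk2, Ldha and 6 further members of smallest p against the pool, and values for 6 other pathway genes. Marker lists covered endothelium, fibroblasts and interstitium, erythroid cells, adipocytes, liver, skeletal muscle, macrophages, adrenal and kidney. The number of arrays, 4 a group, limits the precision, and signal over background was not used here. The limma fit was tested on simulated gene values. The turn of the sign, the placing of features, the centring and the averaging of features were not tested in this way. Protein sequences were not used here.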

Additional observations from a re-analysis of the deposited data

Results flagged for a closer look

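In 50 groups of 4 arrays (25 members in each of the genotypes), an array was singled out where its gap to the nearest other array, divided by the range of the group, was above the 95% critical value of Dixon's test. There were 3 such arrays, and chance gives about 1 in 20 groups. Vhl was 0.63 on +/- array 1, above the other +/- arrays at 0.19, 0.16 and 0.23, and without that array the difference between SDHD-ESR and +/- was 0.07 in place of -0.04. Adm was -0.10 on +/- array 2, below the others at 0.23, 0.25 and 0.25, and without that array the difference was 0.12 in place of 0.21. Mxi1 was -5.08 on +/- array 4, below the others at -0.18, 0.47 and -0.21, on its 1 feature. The cause was not tested.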

How the results depend on the processing

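Results were recomputed with other settings, of which those that kept features near 0, averaged incomplete features or used the replicate block against the pool were added after seeing the data. For the members against +/-, 4 had an unadjusted p of 0.05 or less. There were 1 without centring, 2 with features near 0 kept, 2 with the replicate number as a block (replicate block) and 1 to 4 without 1 array. Their median, -0.04, was 0.22 without centring. The replicate numbers do not pair the arrays, since deviations of arrays with the same number correlated at -0.018 to 0.033. Of all genes, 3 passed after adjustment, against 5 with values on all 8 arrays and 5 with slide as a block. There were 0 with the replicate block, 0 on slide 1 alone, 0 on slide 2 alone and 3 to 5 without 1 array. With each feature by itself, 7 of 38044 features passed. Against the pool, 8 members passed in SDHD-ESR, and 0 did without centring, 5 with arrays scaled, 4 with the replicate block (Hk1, Bnip3, Bnip3l and Adm), 0 on slide 1 or slide 2 alone, 1 (Hk1, with Bnip3 at an adjusted p of 0.0665) with the methods' t-test and 3 to 9 without 1 array. The median in SDHD-ESR was 0.36 without centring, where that of all genes was 0.35. In +/-, 4 passed, against 0 without centring, with the replicate block, on slide 1 or slide 2 alone, or with the methods' t-test. There were 1 to 3 without 1 array. With each feature by itself, 8 of 38 member features passed. The +/- median with features near 0 kept was 0.05. Of the other pathway genes 6 had an unadjusted p of 0.05 or less, and 2 did without centring, 3 with the replicate block and 3 on slide 2 alone. Without centring, 816 of all genes had an unadjusted p of 0.05 or less against +/-, and 100% of the 2 that passed adjustment were higher, against 66.7% of 3. The corresponding share of calls against the pool was 63.2% in SDHD-ESR and 1.11% in +/-, against 67.9% and 66.6% with centring. Against the pool 5147 of all genes passed in SDHD-ESR and 3793 in +/-. These counts were 174 and 180 without centring, 2949 and 253 with the replicate block, and 1054 and 267 with the methods' t-test. They were 0 and 0 on either slide alone, and 3043 to 4796 and 1068 to 3353 without 1 array. At an unadjusted limma p of 0.05 or less there were 5593 and 3836 on slide 1, and 5653 and 5467 on slide 2. With each feature by itself, 8939 and 6590 of 38044 features passed. Against the pool the methods' t-test gave 83.8% and 80.5%, over fewer calls, and the replicate block 62.9% and 34.4%.

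Signs turned in these cases, all with differences that had no adjusted p of 0.05 or less under either setting, apart from Ak4 and Slc16a3 in SDHD-ESR against the pool. Without centring the difference between SDHD-ESR and +/- was 0.20 for Hif1a, 0.11 for Epas1, 0.22 for Vhl, 0.02 for Ak4, 0.04 for Hk2, 0.21 for Pfkfb4, 0.24 for Gapdh and 0.03 for Crebbp. On slide 1 alone it was 0.19 for Hif1a and 0.04 for Gapdh, and on slide 2 alone -0.08 for Hk1, -0.08 for Slc16a3 and 0.09 for Pfkfb4. Without 1 array it ran from -0.09 to 0.07 for Vhl, -0.06 to 0.05 for Slc16a3, -0.02 to 0.09 for Bnip3l, -0.12 to 0.03 for Pfkfb4 and -0.11 to 0.04 for Gapdh. Against the pool in SDHD-ESR, the mean without centring was 0.13 for Ldha, 0.08 for Ak4, 0.06 for Slc16a3 and 0.11 for Kdr, that of Hif1a on slide 2 alone -0.02, and that of Gapdh with features near 0 kept -0.20. In +/-, Hif3a was 0.07 on slide 2 alone, Arnt -0.13 and Hk2 0.03 on slide 1 alone, Ldha -0.01 with features near 0 kept and Ak4 -0.03 on slide 2 alone, and Pdk1 was 0.04 without centring, 0.01 with arrays scaled and 0.08 on slide 1 alone. Without 1 array the +/- mean ran from -0.04 to 0.06 for Ak4, -0.27 to 0.09 for Hk2 and -0.13 to 0.04 for Pdk1. Centring moves the difference of every gene with values on all arrays by the same amount, and the cause of the other turns was not tested. Of the other values recomputed for single genes or for counts of all genes against the pool, 1188 kept their direction and side of the threshold, 132 kept the direction and lost the threshold, and 10 gained it. Promoters with a core motif numbered 24 of 27 members also in the 250 bases before the start.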

Other observations

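Against the +/+ pool, 14 of the 41 other pathway genes had a limma adjusted p of 0.05 or less in SDHD-ESR, or 34.1%, 13 higher and 1 lower, beside 25.8% of all genes. In +/- there were 6, or 14.6%, 4 higher and 2 lower, beside 19% of all genes. Slc2a1, the basal glucose transporter, measured 0.80, 1.02, 0.58 and 0.63 in SDHD-ESR, against 0.38, 0.21, 0.56 and 0.64 in +/-. It was above the pool on all 8 arrays, with means of 0.76 in SDHD-ESR and 0.45 in +/- (limma adjusted p of 0.0042 and 0.024). Vegfa averaged 0.36 in SDHD-ESR and 0.37 in +/- (adjusted p of 0.00967 and 0.0141). Pdk1 averaged 0.47 in SDHD-ESR (adjusted p of 0.0227) and -0.01 in +/- (0.947). These genes were chosen after their values were seen, and without centring the calls against the pool numbered 174 of all genes in SDHD-ESR and 180 in +/-, so their number depends on that step.

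Markers of other tissues also differed between SDHD-ESR and +/-, by medians of 0.68 for liver, 0.57 for skeletal muscle, 0.18 for adrenal, -0.17 for adipocytes, -0.22 for macrophages and -0.24 for the 3 erythroid markers tested of 12. The muscle value came from SDHD-ESR array 1, where the mean level of the 9 tested was 1.05, against -1.51 to -1.19 on the other SDHD-ESR arrays and -1.35 to -0.67 on the +/- arrays. Without that array the median was -0.09, over 8 markers. The liver median was 0.09 on slide 1 and 0.90 on slide 2, where Alb, Ahsg and Hpx differed by 2.40, 2.26 and 2.18, beside 0.04, 0.07 and 0.03 on slide 1. At an unadjusted p of 0.05 or less were 3 of 10 liver markers, all higher, or 30% beside 8.18% of all genes (4.2% higher), and 0 of the tested markers of the other 5 lists, and 0 of all of them passed adjustment by limma. Their part in the members' values was not tested.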
